A study of Mus musculus with 14 samples.

Results

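Proteasome subunits and regulators were followed in sorted germinal centre (GC) B cells of the mouse. The members are the rows of the deposited table of unique molecular identifier (UMI) counts whose gene symbol starts with Psma, Psmb, Psmc, Psmd, Psme, Psmf or Psmg and a number, with pseudogenes left out. This rule gave 47 of the 9969 genes of the table, and it used no measured value. All 47 members were among the 7999 genes that passed the filter on low counts. Psmd9, a chaperone of the proteasome base, had a row only in the deposited read counts, with 0 to 18 reads per library (median 7.5), and was not tested. Psmc3ip matched the rule by its letters alone. It encodes a partner of the meiotic recombination proteins and is no proteasome subunit. It is included in every count over the 47 members and is named where it is 1 of the few.

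The proteasome is the protease that degrades ubiquitin-tagged proteins in the cytosol and nucleus. Its core, the 20S particle, stacks rings of alpha subunits (Psma genes), which gate the entry, around rings of beta subunits (Psmb genes), of which Psmb5, Psmb6 and Psmb7 encode the constitutive active sites. In lymphocytes and under interferon gamma, Psmb8, Psmb9 and Psmb10 take the places of these catalytic subunits and form the immunoproteasome, known for cutting peptides that fit MHC class I. The 19S cap unfolds tagged proteins with a ring of ATPases (Psmc genes) and recognises and deubiquitinates them with its other subunits (Psmd genes). Other regulators bind in its place. These are the 11S activators PA28 alpha and beta (Psme1 and Psme2) and PA28 gamma (Psme3), PA200 (Psme4) and PI31 (Psmf1).

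The cells came from popliteal lymph nodes of C57BL/6 chimeric mice that held 50% wild-type (WT) and 50% SykY317F cells, harvested 14 days after immunization with NP-KLH, a hapten on a carrier protein. Syk is the kinase downstream of the B cell antigen receptor, and the variant carries phenylalanine in place of a tyrosine. Sorted dark zone (DZ) cells, which divide and mutate their antibody genes, and light zone (LZ) cells, which are selected on antigen, gave 4 libraries for each zone in WT and 3 for each zone in SykY317F. All groups share the strain, the immunization and the chimeric host. The sources used here do not state the sort gates, how the chimeras were made, or age and sex. Whether replicates are separate mice is not stated either, so p-values measure only the spread between these libraries. In bulk libraries, fewer cells of a type and less RNA per cell cannot be told apart.

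UMI totals were 747948 to 1767898 in WT DZ, 499443 to 1600902 in WT LZ, 381954 to 1413310 in SykY317F DZ and 149641 to 379125 in SykY317F LZ. The 3 SykY317F LZ libraries (9.37 to 15.8) and SykY317F DZ replicate 4 (15.6) gave fewer UMIs per 100 reads than the other 10 libraries (33.5 to 53.2). Of the 12 GC B cell markers on the list, 11 had a row, and their summed level was 6181 to 11460 CPM (UMIs relative to the library total after TMM scaling, the unit of all levels given here). WT DZ replicate 5 stood apart for the proteasome: 5 of the 45 members that had at least 20 UMIs in each other WT DZ library were more than 4-fold below the lowest of them. The same held for 3.58% of all genes in that library, and in each of the other 13 libraries it held for 0 members and for 0% to 0.766% of genes.

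One member is a copy of another. Psme2b (chromosome 11, 48945354 to 48946190, minus strand, GRCm38) is a retrogene of Psme2 (chromosome 14, 55587441 to 55591113, minus strand), that is, a gene made from a copied mRNA. Their 720-base reading frames differed at 5 bases (99.3% identity) and their proteins at 0 residues. The differences, with the base of Psme2 first, the position counted from 1 at the first base of the reading frame, and the base of Psme2b last, were C312T, A369G, C489T, C519T and C543T. Positions 307 to 548 of both frames, 5′ to 3′, are shown because they hold every difference (capitals), and so every base of the frame by which a read can be told apart.
Psme2: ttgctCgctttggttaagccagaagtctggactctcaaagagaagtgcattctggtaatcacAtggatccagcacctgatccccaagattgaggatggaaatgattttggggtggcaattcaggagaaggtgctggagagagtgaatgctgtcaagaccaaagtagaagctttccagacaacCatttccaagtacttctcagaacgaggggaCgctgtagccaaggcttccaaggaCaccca
Psme2b: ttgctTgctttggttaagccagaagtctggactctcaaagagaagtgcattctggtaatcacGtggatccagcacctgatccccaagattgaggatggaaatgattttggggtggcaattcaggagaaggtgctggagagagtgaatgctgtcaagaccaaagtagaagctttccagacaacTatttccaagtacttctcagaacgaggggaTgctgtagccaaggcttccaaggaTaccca
After the last difference, the final 221 bases of the Psme2 transcript were identical in both genes. Libraries of this kind count transcript ends, and how reads that match both genes were assigned is not given in the sources used here, so the split of UMIs between the pair is uncertain. Psme2b also lies within same-strand gene models (9930111J21Rik1 and Gm12185) that have no row in the tables used here.

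Levels differed widely between the members. Because each UMI stands for the end of 1 transcript, CPM was not divided by transcript length. Psmb8 (chromosome 17, 34197721 to 34201454), the immunoproteasome subunit with chymotrypsin-like activity, had the highest mean level of all members over the 14 libraries, 1689 CPM. Psme1 followed with 821 CPM, the structural beta subunit genes Psmb1 and Psmb4 with 769 and 635 CPM, and the other immunoproteasome genes Psmb9 and Psmb10 with 673 and 563 CPM. Psma7 had the highest level of the alpha ring, 525 CPM, and Psma4 the lowest, 46.2 CPM.

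Constitutive catalytic subunits were lower in abundance than their replacements. Psmb6 stood at 372 CPM, Psmb7 at 101 and Psmb5 at 77.8. The 19S ATPase genes ran from 62.1 CPM (Psmc6) to 273 (Psmc3), and the other 19S subunit genes from 64.1 (Psmd11) to 366 (Psmd4, a ubiquitin receptor). Assembly chaperones ranged widely, with 27.5 CPM for Psmd5, 31.9 for Psmd10 and 37.6 to 115 for Psmg1 to Psmg4. PA200 (Psme4, 29.6 CPM) and PI31 (Psmf1, 12.9 CPM) were low as well, and Psmf1 had 6 UMIs in all in SykY317F LZ. Psmc3ip stood at 32.9 CPM.

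**Figure D1:**
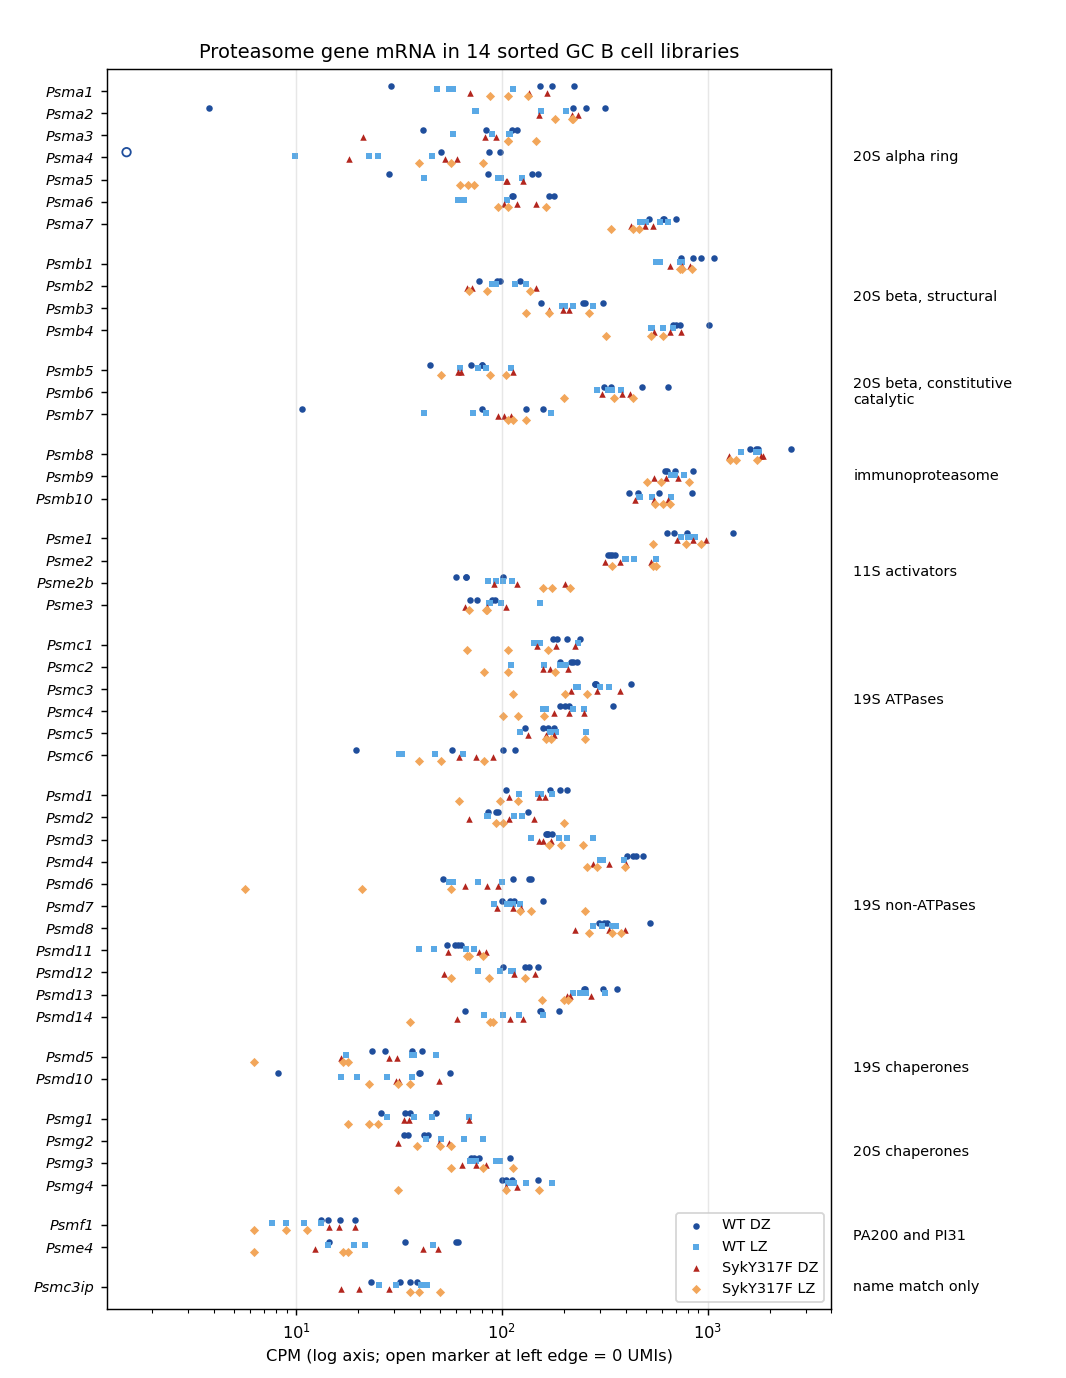
Level of each of the 47 members in each of the 14 libraries, in CPM on a log axis, by class. Each marker is 1 library, and colour and shape give the group. Psmb8 lies at the right (1266 to 2553 CPM), most groups overlap, and the open marker shows Psma4 with 0 UMIs in WT DZ replicate 5.

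Summed over the 47 members, the proteasome took about 1 in 100 UMIs. In WT DZ its share was 1.16%, 1.26%, 1.22% and 1.28% in replicates 2, 3, 4 and 5 (mean 1.23% ± 0.053, SD, n = 4). WT LZ replicates 1, 2, 3 and 5 had 0.990%, 0.995%, 1.24% and 1.12% (1.09% ± 0.12). In WT the LZ libraries lay at or below the DZ range except replicate 3.
SykY317F DZ replicates 1, 2 and 4 had 1.19%, 1.01% and 1.15% (1.12% ± 0.098, n = 3). The share in SykY317F LZ was 1.01%, 0.909% and 0.955% (0.957% ± 0.049). The highest SykY317F LZ library and the lowest SykY317F DZ library agreed within their exact 95% binomial intervals (0.975% to 1.04% and 0.991% to 1.02%), which cover counting error only. The summed level of the plasma cell markers differed by zone. It was 2125 to 2789 CPM in WT DZ and 1904 to 2485 in SykY317F DZ, against 1278 to 1594 in WT LZ and 1343.5 to 1436 in SykY317F LZ. The sum holds only the 4 markers tested (Xbp1, Jchain, Irf4 and Mzb1). Mzb1 had 17564 UMIs over the 14 libraries, against 4755 for Jchain, 2514 for Xbp1 and 889 for Irf4. In WT, 3 of these 4 were on the DZ side (51.7% of all genes). Irf4 was on the LZ side there, with a log2 fold change of 1.25 ± 0.59 (adjusted p = 0.599 in edgeR). The plasma cell surface marker Sdc1 was not in the sum, with 17 UMIs in all and 0 UMIs in 8 libraries. The part of these markers in the proteasome share was not tested.

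The immunoproteasome made up most of the catalytic transcripts in every library. Psmb8, Psmb9 and Psmb10 together held 82.2%, 83.4%, 83.4% and 85.9% of the UMIs of the 6 catalytic genes in WT DZ replicates 2, 3, 4 and 5 (83.7% ± 1.55). They held 86.2%, 84.7%, 83.7% and 85.6% in WT LZ replicates 1, 2, 3 and 5 (85.1% ± 1.06). SykY317F DZ replicates 1, 2 and 4 gave 84.5%, 83.0% and 83.4% (83.6% ± 0.76), and SykY317F LZ gave 85.1%, 80.2% and 85.5% (83.6% ± 2.95). All 4 groups overlapped. The lowest library, SykY317F LZ replicate 2, rested on 536 UMIs, with an exact binomial interval of 76.6% to 83.5%. Group means from the read counts were 83.4%, 85.2%, 83.6% and 83.2% in the same order.

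**Figure D2:**
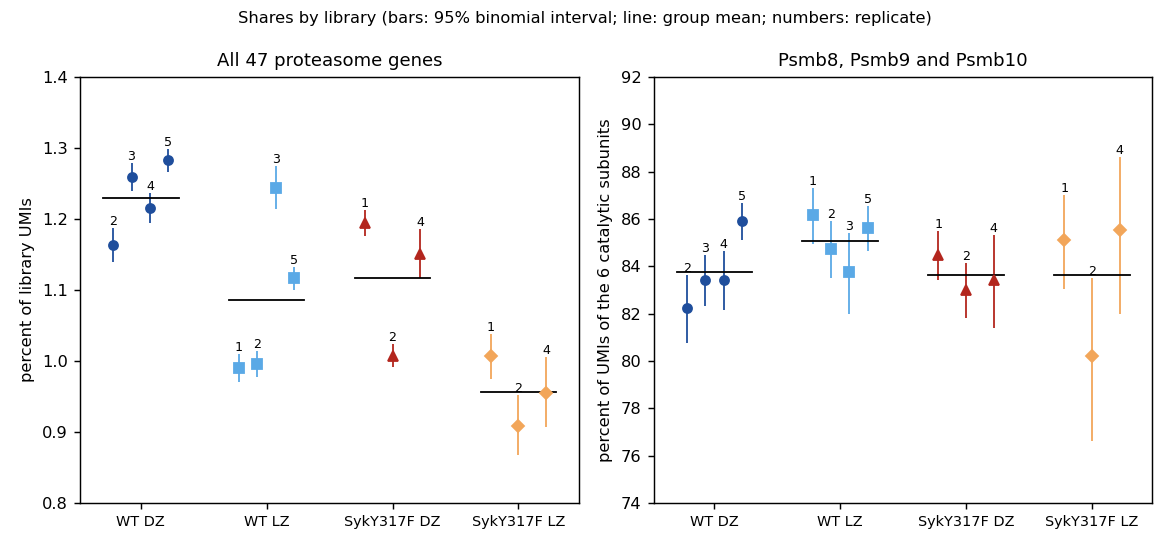
Left, percent of each library's UMIs that belong to the 47 members; right, percent of the UMIs of the 6 catalytic subunit genes that belong to Psmb8, Psmb9 and Psmb10. Points are libraries with exact 95% binomial intervals, numbers are replicates and lines are group means; the left values run from 0.909% to 1.28%, the right values from 80.2% to 86.2%, and the axes do not start at 0.

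The first set of comparisons asked how LZ cells differ from DZ cells. No member passed an adjusted p of 0.05 in edgeR, with 0 of 47 called in WT, in SykY317F and in the mean of both genotypes, where 0.188%, 0.0375% and 1.43% of all genes were called. At an unadjusted p under 0.05, the averaged contrast had 9 members lower in LZ (7.94% of all genes) and 1 higher (6.36%). WT cells alone had 3 members lower (3.89% of all genes) and 1 higher (4.59%). The 3 became 7 when WT DZ replicate 5 was left out, 6 when WT LZ replicate 5 was, and 1 when WT LZ replicate 1 or 2 was. The 1 higher became 0 when WT DZ replicate 5, or replicate 2 or 3 of WT LZ, was left out. SykY317F cells had 4 lower (6.23%) and 2 higher (4.04%). Those 2 were Psmd7 and Psmc3ip, which is no proteasome subunit. The 4 lower became 2 when replicate 4 of SykY317F LZ, replicate 4 of WT DZ or replicate 5 of WT LZ was dropped. The 2 higher became 0 when WT DZ replicate 5 or SykY317F LZ replicate 2 was dropped, and 1 in 9 other omissions of a library. DESeq2's Wald test called 1 member (Psmd6) in the averaged contrast and 0 in each genotype, and limma voom called 2 (Psma1 and Psma6) in WT and 0 in the other comparisons of zones. The count of 9 rested on single libraries: it was 3 without WT LZ replicate 2, 4 when replicate 1 of SykY317F DZ or replicate 4 of SykY317F LZ was left out, 5 without SykY317F LZ replicate 1 or 2, and 11 without WT DZ replicate 5.

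The side of the members' fold changes was counted next. In the averaged contrast 30 of 47 had a fold change on the lower side in LZ (53.7% of all genes), and their median log2 fold change was -0.19 against -0.03 over all genes. The counts were 32 in WT (51.7% of all genes) with a median of -0.17, and 26 in SykY317F (55.3% of members against 53.3% of all genes, near the background) with a median of -0.12. The 26 became 22 when SykY317F LZ replicate 4 was left out (54.2% of all genes). They became 33 without SykY317F LZ replicate 1 (55.3%), 31 without SykY317F DZ replicate 2 (49.8%), and 34 with scaling by library totals alone (63.3%). Without WT DZ replicate 5 the WT median was -0.056, against 0.03 for all genes, and without SykY317F LZ replicate 4 the SykY317F median was 0.0042. Scaling by library totals alone moved the median of all genes in SykY317F from -0.04 to -0.19, and that of the members to -0.25.

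Among the active sites, neither immunoproteasome nor constitutive genes separated the zones. Psmb8 was measured at 1725, 1751, 1602 and 2553 CPM in WT DZ and 1779, 1719, 1735 and 1446 in WT LZ. In SykY317F it was 1814, 1266 and 1866 CPM in DZ and 1740.1, 1281 and 1367 in LZ. The zones overlapped in both genotypes, and WT DZ replicate 5 was the highest library. The log2 fold change of Psmb8 between zones, averaged over genotypes, was -0.18 ± 0.17 (SE, adjusted p = 0.674).

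Psmb9, which replaces the caspase-like site, gave 699 ± 104 CPM in WT DZ, 704 ± 41.9 in WT LZ, 633 ± 85.7 in SykY317F DZ and 638 ± 157 in SykY317F LZ. Its averaged log2 fold change between zones was 0.01 ± 0.16 (adjusted p = 0.983), and that of Psmb10, which replaces the trypsin-like site, was 0.03 ± 0.18 (adjusted p = 0.976). The sign of both flipped when libraries were scaled by their totals alone, with read counts and with the GC trend removed. Exons of Psmb9 overlap those of the peptide transporter gene Tap1 on the other strand. For the constitutive sites, the values were 0.20 ± 0.23 for Psmb5 (adjusted p = 0.755), -0.28 ± 0.20 for Psmb6 (0.530; -0.17 without WT DZ replicate 5 or SykY317F LZ replicate 4, -0.43 when replicate 2 of SykY317F LZ was left out) and 0.06 ± 0.46 for Psmb7 (0.980). That of Psmb7 was negative when libraries were scaled by their totals alone, in limma voom (-0.17), and when WT DZ replicate 5 (-0.13) or WT LZ replicate 3 (-0.16) was left out.

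In the alpha ring, 6 of 7 genes were on the DZ side in the averaged contrast (53.7% of all genes), with a median log2 fold change of -0.30. The genotypes differed in this. In WT 6 of 7 were on that side (51.7% of all genes), with a median of -0.64. In SykY317F 4 of 7 were (53.3%), with a median of -0.03, and this count ran from 2 to 5 over the alternatives. The averaged median became -0.50 when WT DZ replicate 5 was left out, -0.47 when WT LZ replicate 5 was, -0.46 when SykY317F DZ replicate 1 was and -0.19 when WT DZ replicate 3 was. Psma6 (chromosome 12, 55384222 to 55418454) had the smallest p of all members in WT. It was at 113, 179.7, 170.0 and 114 CPM in WT DZ and at 65.8, 63.3, 61.4 and 106 CPM in WT LZ. Every WT DZ library lay above every WT LZ library, the highest of which was replicate 5.
The log2 fold change of Psma6 in WT was -0.94 ± 0.25 (adjusted p = 0.152 in edgeR, 0.0112 in limma voom). SykY317F libraries did not repeat the separation, with 102, 147 and 119 CPM in DZ and 107, 96.0 and 163 CPM in LZ. The difference of the zone effects was 0.91 ± 0.41 on the log2 scale (adjusted p = 0.999). Psmb1, a structural subunit of the beta ring, had a log2 fold change of -0.45 ± 0.20 in WT (adjusted p = 0.536) and went from 897 ± 139.9 CPM in DZ to 659 ± 97.3 in LZ, with overlapping libraries.

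The 19S ATPases lay mostly on the DZ side, 5 of 6 in the averaged contrast and in each genotype, with an averaged median log2 fold change of -0.45. Of all genes, 53.7% were on that side in the averaged contrast, 51.7% in WT and 53.3% in SykY317F. Psmc1, Psmc2, Psmc3 and Psmc4 were the 4 lower in LZ at an unadjusted p under 0.05 in the averaged contrast (7.94% of all genes). Dropping SykY317F DZ replicate 1 brought this count to 0. It fell to 1 when replicate 2 of WT LZ was dropped, and likewise for replicate 4 of SykY317F LZ. Omission of WT LZ replicate 5 left 2, as did that of replicate 2 of SykY317F LZ. Read counts gave 2 and limma voom gave 5. Psmc5 was the exception on the LZ side, at 159 ± 21.1, 184 ± 55.7, 159 ± 23.4 and 197 ± 49.9 CPM in DZ and LZ of WT and then of SykY317F. Psmc4 had the smallest p of the class.
Its levels were 203, 191, 213 and 346 CPM in WT DZ and 165, 158, 249.5 and 222 CPM in WT LZ. SykY317F cells had 250.5, 179.6 and 213 CPM in DZ and 161, 102 and 119 CPM in LZ. The zones overlapped in WT and did not in SykY317F. Its log2 fold change was -0.50 ± 0.19 averaged over genotypes (adjusted p = 0.224) and -0.72 ± 0.30 in SykY317F (adjusted p = 0.413).

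Psmd6 (chromosome 14, 14112174 to 14120984), a scaffold subunit of the 19S lid, came closest to the threshold of all members. It was at 51.8, 113, 136 and 138 CPM in WT DZ and at 58.1, 55.4, 76.8 and 99.9 CPM in WT LZ. In SykY317F it was at 95.8, 84.8 and 66.3 CPM in DZ and 20.9, 5.65 and 56.5 CPM in LZ. The SykY317F zones did not overlap, but their LZ libraries held only 7, 1 and 9 UMIs of the gene.
The log2 fold change between zones was -1.14 ± 0.31 averaged over genotypes (adjusted p = 0.0685 in edgeR) and -1.68 ± 0.51 in SykY317F (adjusted p = 0.276). In SykY317F, 8 of 8 myeloid markers (median log2 fold change -2.32) and 4 of 4 T cell markers (median -0.96) were on the DZ side as well (53.3% of all genes), with 0 called. Their part in the values of Psmd6 and Psmc4 was not tested. The averaged value of Psmd6 passed in DESeq2 (adjusted p = 0.0189), after removal of each library's GC trend (0.0426), and in edgeR without WT DZ replicate 2 (0.0321), WT LZ replicate 5 (0.0433) or SykY317F LZ replicate 4 (0.0227). Over all alternatives its adjusted p ran from 0.0189 to 0.175, and read counts gave -1.11 ± 0.33 (adjusted p = 0.120).
Psmd7, another lid subunit, was on the other side in SykY317F with a log2 fold change of 0.62 ± 0.29 (adjusted p = 0.481), or 0.19 without SykY317F LZ replicate 2. It measured 113, 94.8 and 124 CPM in SykY317F DZ and 122, 254 and 138 CPM in LZ, and these overlapped. Psmc3ip, the gene matched by letters, had 0.87 ± 0.40 in SykY317F (adjusted p = 0.468).

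Of the 4 11S activator genes, 3 were on the LZ side in the averaged contrast (46.3% of all genes), as were 3 of the 4 chaperones of 20S assembly. The activator genes on that side were Psme3, Psme2 and its retrogene Psme2b, and the split of UMIs between the last pair is uncertain. In SykY317F only that pair was on the LZ side, and Psme3 was on the DZ side. Psme1 was at 638, 797, 683 and 1330.1 CPM in WT DZ, 802, 745, 864 and 829 in WT LZ, 854, 710.3 and 981 in SykY317F DZ and 928, 785 and 546 in SykY317F LZ. The groups overlapped, and WT DZ replicate 5 was the highest library. Its log2 fold change between zones was -0.13 ± 0.19 (adjusted p = 0.812), and 0.02 without WT DZ replicate 5.
Psme2 was at 343, 354, 336 and 327 CPM in WT DZ and 441, 559.5, 397 and 401 CPM in WT LZ, and these groups did not overlap. SykY317F libraries overlapped, with 319, 374 and 534 CPM in DZ and 540.2, 559 and 345 CPM in LZ. The log2 fold change of Psme2 was 0.40 ± 0.22 in WT (adjusted p = 0.634) and 0.33 ± 0.17 averaged over genotypes (adjusted p = 0.378). Psme2b had 0.44 ± 0.20 in the averaged contrast (adjusted p = 0.303).
Among the chaperones of 20S assembly, Psmg2 was at 34.9, 44.0, 41.8 and 33.3 CPM in WT DZ and 50.5, 81.1, 65.3 and 42.7 in WT LZ. Only the lowest LZ library overlapped the DZ range, and the log2 fold change was 0.62 ± 0.27 (adjusted p = 0.534). All 4 of these chaperones were on the LZ side in WT (3861 of all 7999 genes), with a median log2 fold change of 0.23. In SykY317F 2 of the 4 were (3737 of all genes), with a median of -0.04, and the averaged median was 0.05. PA200 and PI31 were both on the DZ side in each genotype.

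Complete separation of the zones, with every library of a zone above every library of the other, was seen in few members. In WT it held for 1 member higher in LZ, Psme2 (2.89% of all genes), and 2 lower, Psma6 and Psmd4 (2.88%). In SykY317F it held for 2 members higher, Psma3 and Psmc3ip (6.56% of all genes), and for 5 lower, Psma5, Psmc4, Psmd6, Psmf1 and Psmg1 (8.5%). No member separated the zones in the same direction in both genotypes. The same count was not made over all genes, so this is not a trait particular to the members.

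**Figure D3:**
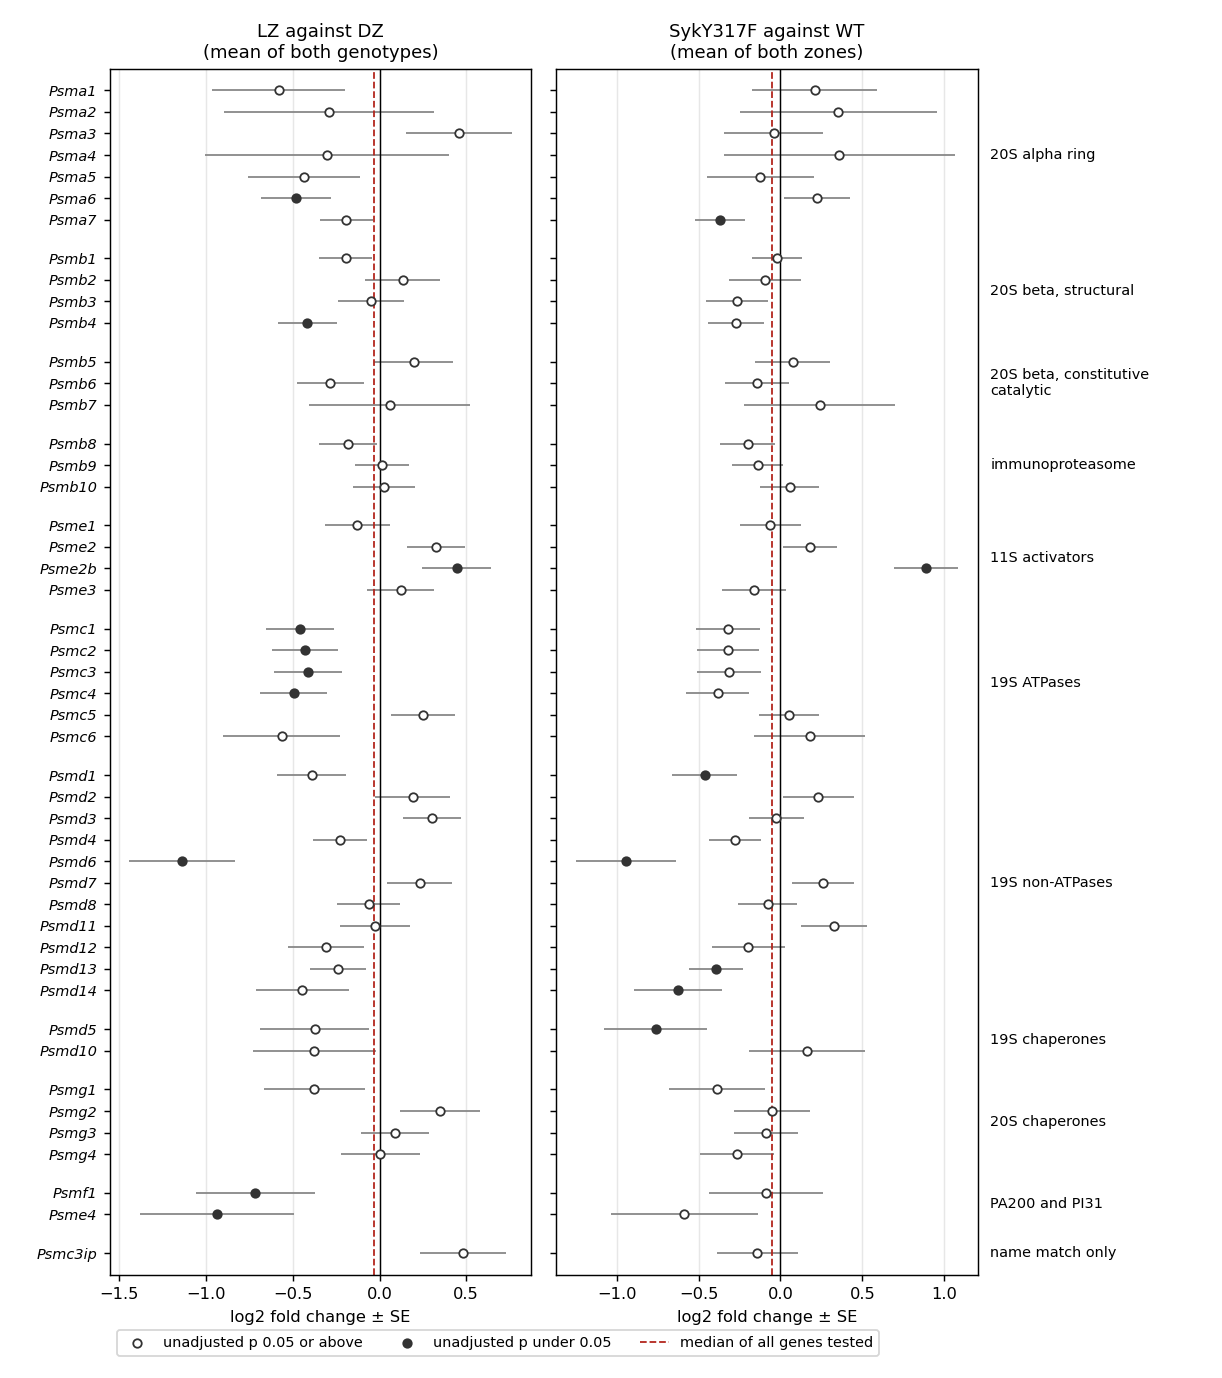
Log2 fold change with its SE for each member, left for LZ against DZ averaged over genotypes and right for SykY317F against WT averaged over zones. Filled points have an unadjusted p under 0.05, none passed the adjusted threshold, and the dashed line is the median of all genes tested (-0.03 and -0.05); Psmd6 lies at -1.14 and -0.94 and Psme2b at 0.44 and 0.89.

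The second set of comparisons set SykY317F against WT cells. edgeR called 0 of 47 members in DZ, in LZ and in the mean of both zones, and called 0% of all genes in each. At an unadjusted p under 0.05, 0 members were lower (0.988% of all genes) and 1 higher (2.83%) in DZ. In LZ the counts were 5 lower (6.18% of all genes) and 3 higher (3.64%). The 5 fell to 3 when SykY317F LZ replicate 4 was left out, to 2 without WT LZ replicate 5 and to 1 when WT LZ replicate 3 was dropped. They rose to 7 without WT LZ replicate 1. The 3 higher members became 5 without WT DZ replicate 5, and the 1 in DZ became 0 without SykY317F DZ replicate 4. The counts were, in the averaged contrast, 6 lower (6.1%) and 1 higher (3.95%). DESeq2's Wald test called 1 member, Psme2b, in the averaged contrast and 0 within either zone, and limma voom called 0 in all 3. In the averaged contrast, the count of 6 lower members was 9 without SykY317F LZ replicate 1, 4 when WT DZ replicate 5, or replicate 2 of SykY317F DZ, or replicate 4 of SykY317F LZ was left out, 3 without SykY317F DZ replicate 4, and 2 without WT LZ replicate 3.

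Members were on the lower side in SykY317F in 33 of 47 cases in DZ (55% of all genes), in 28 in LZ (54%) and in 32 in the averaged contrast (55.3%). Their median log2 fold changes were -0.15, -0.10 and -0.10, against -0.04, -0.06 and -0.05 for all genes. Without SykY317F LZ replicate 4 the LZ median was 0.0071, and with scaling by library totals alone it was -0.22 against -0.16 for all genes.

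None of the 3 immunoproteasome genes separated the genotypes in either zone. Averaged over zones, the log2 fold change was -0.20 ± 0.17 for Psmb8 (adjusted p = 0.727), -0.14 ± 0.16 for Psmb9 (0.810) and 0.06 ± 0.18 for Psmb10 (0.950). Psmb10 was at 573 ± 192 CPM in WT DZ, 533 ± 92.3 in WT LZ, 546 ± 97.8 in SykY317F DZ and 606 ± 51.8 in SykY317F LZ. The constitutive sites had 0.07 ± 0.23 for Psmb5 (adjusted p = 0.947), -0.15 ± 0.20 for Psmb6 (0.848) and 0.24 ± 0.46 for Psmb7 (0.909). For the PA28 subunits the values were -0.06 ± 0.19 for Psme1 (adjusted p = 0.945) and 0.18 ± 0.17 for Psme2 (0.759). With read counts the sign flipped for Psme1, Psmb5 and Psmb6. A p above the threshold does not show that these genes are equal in the genotypes.

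Of the 19S subunits, Psmd6 had the smallest p on the lower side, with -0.94 ± 0.31 averaged over zones (adjusted p = 0.274) and -1.48 ± 0.50 in LZ (0.322; -2.27 without SykY317F LZ replicate 4). Psmd13, a lid subunit, had -0.39 ± 0.16 in the averaged contrast (adjusted p = 0.404). It was at 294 ± 52.8 and 258 ± 41.3 CPM in WT DZ and LZ and at 231 ± 34.2 and 189 ± 27.8 CPM in SykY317F DZ and LZ. Exons of Psmd13 overlap those of Sirt3 on the other strand.
In LZ, Psmd5, a chaperone of the 19S base, was at 17.6, 36.6, 48.0 and 37.5 CPM in WT and 17.9, 16.9 and 6.27 CPM in SykY317F, where all libraries together held 10 UMIs. The ranges met at the lowest WT library, and the log2 fold change was -1.24 ± 0.50 (adjusted p = 0.413). Psmd4 in DZ was at 435, 451, 406 and 486 CPM in WT and 399, 278 and 332 CPM in SykY317F. These groups did not overlap, with a log2 fold change of -0.40 ± 0.22 (adjusted p = 0.9999).
On the higher side in SykY317F were Psmd7 in LZ, with 0.65 ± 0.27 (adjusted p = 0.439; 0.23 without SykY317F LZ replicate 2), and Psmd11, a lid subunit, with 0.33 ± 0.20 in the averaged contrast (adjusted p = 0.608). In DZ, Psme2 had 0.26 ± 0.23 (0.024 without SykY317F DZ replicate 4, 0.40 when replicate 1 was left out) and Psmc3ip -0.53 ± 0.33 (adjusted p = 0.9999 for both).

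Genotypes separated completely in few members. In DZ this held for 1 member lower in SykY317F, Psmd4 (2.31% of all genes), and for 0 higher (3.56%). In LZ it held for 5 lower, Psma7, Psmd1, Psmd13, Psme3 and Psmg1 (6.66% of all genes), and for 1 higher, Psme2b (3.84%).

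Psme2b had the smallest p of all members between genotypes. It was at 101, 59.7, 66.7 and 67.2 CPM in WT DZ and at 101, 112, 94.1 and 86.0 CPM in WT LZ. SykY317F had 91.5, 119 and 202 CPM in DZ and 215, 158 and 176 CPM in LZ. The LZ groups did not overlap, while in DZ the lowest SykY317F library lay below WT DZ replicate 2.
The log2 fold change was 0.87 ± 0.27 in DZ (adjusted p = 0.766), 0.91 ± 0.28 in LZ (0.279) and 0.89 ± 0.20 averaged over zones (0.119 in edgeR, 0.0112 in DESeq2). Without SykY317F DZ replicate 4 the DZ value was 0.52 and the averaged value 0.71. Over all alternatives the adjusted p of the averaged value ran from 0.0112 to 0.771.
Read counts gave another picture, with a log2 fold change of 0.23 ± 0.22 averaged over zones (adjusted p = 0.742). In UMIs, Psme2b made up 17.7% ± 3.56 of the Psme2 and Psme2b total in WT DZ, 18.0% ± 1.10 in WT LZ, 24.6% ± 2.61 in SykY317F DZ and 28.1% ± 5.85 in SykY317F LZ. In reads, its share was 13.6% ± 2.70, 13.1% ± 2.17, 15.4% ± 3.28 and 14.1% ± 2.08 in the same order. In UMIs the LZ libraries of the genotypes did not overlap, while WT DZ replicate 2 (22.7%) lay above the lowest SykY317F DZ library (22.3%), and in reads the genotypes overlapped in both zones.

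Psme2b also had the most UMIs per read of all 47 members, 66.0 UMIs per 100 reads over all libraries. Psmb5 was next with 59.8, and Psme2 had 42.1. In the libraries with few UMIs per read the pair diverged: SykY317F LZ replicate 2 gave 28.0 UMIs per 100 reads for Psme2b and 13.4 for Psme2, against 71.4 and 52.6 in WT DZ replicate 3.
The pattern ran through the members. Over the 47, the UMI-based minus the read-based log2 fold change between genotypes went with the log2 of a member's UMIs per read in the 10 libraries of at least 400000 UMIs, with r = 0.65 averaged over zones, r = 0.75 in DZ and r = 0.52 in LZ. The members share the same libraries, and those 10 libraries enter both measures, so this is a description. For the zones the same correlation was 0.31 in WT, 0.22 in SykY317F and 0.29 in the averaged contrast. Psmb5 shows its size, with a genotype log2 fold change of 0.07 ± 0.23 from UMIs and -0.84 ± 0.30 from reads (adjusted p = 0.231). Reads called 0 members in each of the 7 contrasts. The fold changes from UMIs and reads differed in sign for 6 of 47 members in the averaged genotype contrast and for 8 in the averaged zone contrast.

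**Figure D4:**
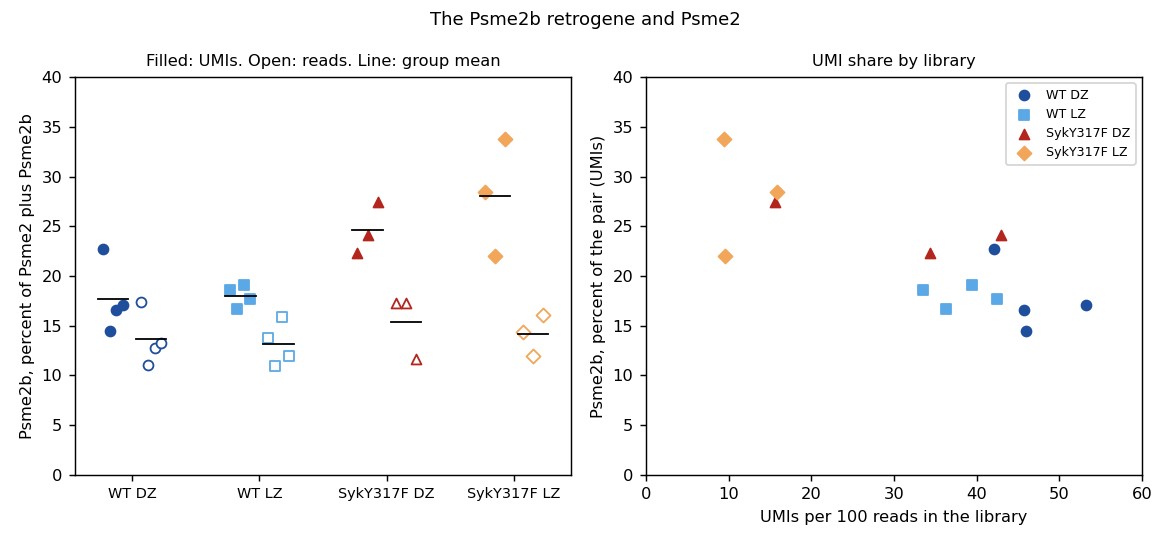
Left, Psme2b as a percent of Psme2 plus Psme2b in each library, from UMIs (filled) and reads (open), with lines at group means; right, the UMI share against the UMIs per 100 reads of the library. UMI shares average 17.7% and 18.0% in the WT groups and 24.6% and 28.1% in the SykY317F groups, read shares 13.1% to 15.4%, and the 4 libraries at the left of the right panel have fewer than 16 UMIs per 100 reads.

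The last contrast asked whether the zone effect differed between genotypes. edgeR called 0 of 47 members and 0% of all genes, and DESeq2 and limma voom called 0 members as well. At an unadjusted p under 0.05, 1 member was on the lower side (3.18% of all genes), Psmg1, and 1 on the higher side (1.63%), Psma6. When WT DZ replicate 5 was left out, 4 members were on the higher side at that p. Psmg1, a chaperone of alpha ring assembly, was at 25.9, 35.8, 33.8 and 47.7 CPM in WT DZ, 37.3, 27.7, 69.1 and 45.6 in WT LZ, 35.6, 33.6 and 69.1 in SykY317F DZ and 17.9, 22.6 and 25.1 in SykY317F LZ. SykY317F LZ lay below every other library, on 14 UMIs in all.
The difference of the zone effects was -1.32 ± 0.58 for Psmg1, 0.78 ± 0.38 for Psmd7 and -1.08 ± 0.62 for Psmd6 (adjusted p = 0.999 for each). Without SykY317F LZ replicate 2 the value of Psmd7 was 0.35, and that of Psmd6 was -0.70. Leaving out SykY317F LZ replicate 4 instead gave -1.86 for Psmd6. Of all members 21 were on the lower side (53.7% of all genes), with a median of 0.02 against -0.05 over all genes. In the alpha ring 5 of 7 were on the higher side (46.3% of all genes), with a median of 0.87 (0.51 without SykY317F DZ replicate 1), and the 3 immunoproteasome genes lay between 0.01 and 0.26.

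WT DZ replicate 5, 1 of the 4 WT DZ libraries, moved many of these values. Psma1 had 28.9 CPM there and 153 to 224 in the other WT DZ libraries. Psma2 had 3.77 CPM (6 UMIs) against 221 CPM or more, and Psma4 had 0 UMIs against 50.5 to 98.4 CPM. Psmb7 had 10.7 CPM against 80.3 to 158, and the 19S chaperone gene Psmd10 had 8.16 against 39.5 to 56.1.
Each of them had at least 31 UMIs in the other WT DZ libraries. These 5 of 45 eligible members are 11.1%, against the 3.58% of all genes. The same library was at or near the top of the group for other subunits of the same particle: Psmb8, Psmb4 and Psmc3 were at 2553, 1017 and 424 CPM, against 1602 to 1751, 677 to 733 and 282 to 286 in the other WT DZ libraries.

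Base composition separated libraries along the members. GC content of the members' transcripts ran from 37.0% (Psmc6) to 58.3%, with a median of 49.8% against 50.7% over the 7724 genes with a value, and the alpha ring was AT-rich (median 45.0%) while the immunoproteasome was GC-rich (55.8%). A library's deviation from the mean of all 14, set against GC content over the 47 members, had a correlation of 0.74 in WT LZ replicate 1 and 0.53 in WT DZ replicate 5. It was -0.73 in SykY317F DZ replicate 2, -0.69 in WT DZ replicate 4, -0.67 in WT DZ replicate 3 and -0.56 in WT LZ replicate 5.
In the other 8 libraries it lay between -0.28 and 0.30. The members share each library, so these are descriptions. Over all genes the same measure ran from -0.62 to 0.56. The sign differed between libraries of the same group in every group, in WT and in SykY317F. With each library's GC trend removed, the alpha ring median between zones, averaged over genotypes, was -0.22 in place of -0.30, and that of the 19S ATPases was -0.43 in place of -0.45. The part of base composition in the single values was not tested.

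**Figure D5:**
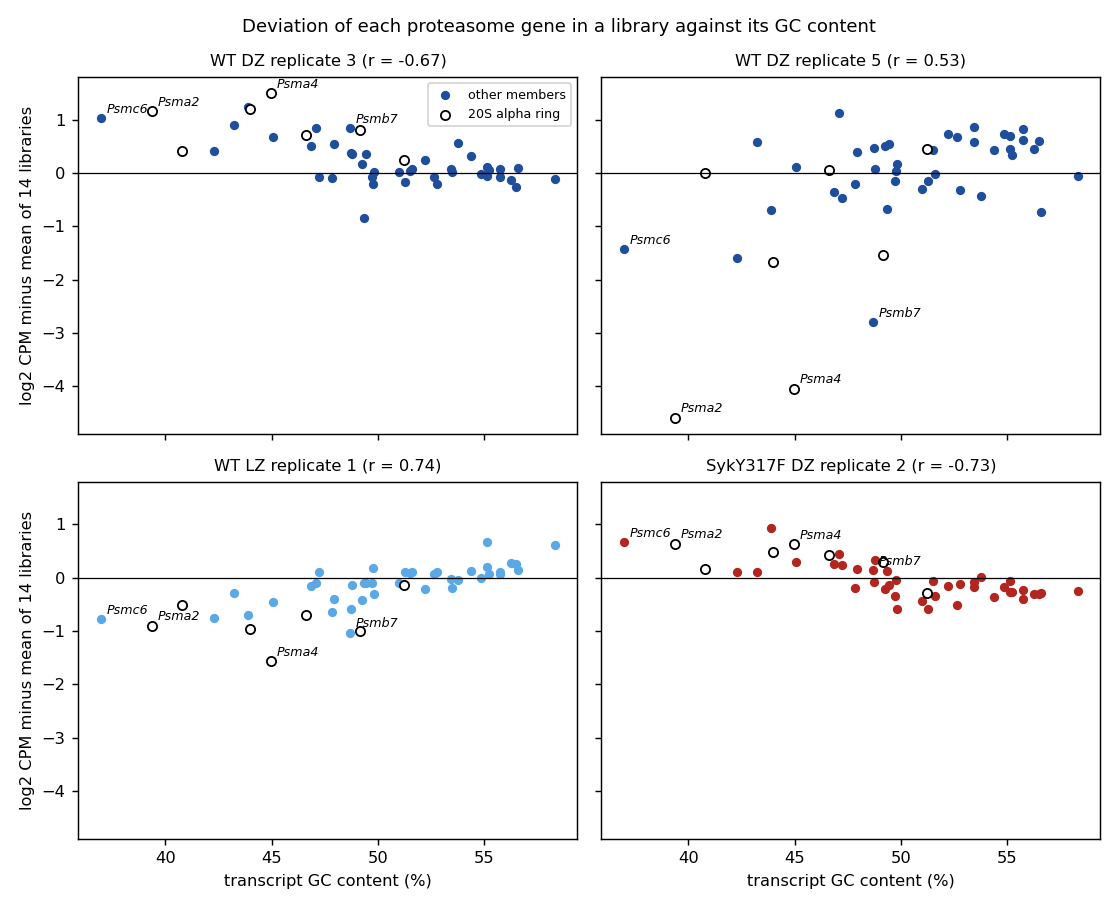
Log2 CPM of each member in a library minus its mean over all 14 libraries, against the GC content of its transcript, in 4 libraries; open circles are the alpha ring. The correlations shown are -0.67 for WT DZ replicate 3, 0.53 for WT DZ replicate 5, 0.74 for WT LZ replicate 1 and -0.73 for SykY317F DZ replicate 2, and Psma2 and Psma4 lie more than 4 log2 units below 0 in WT DZ replicate 5.

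Partners of the proteasome outside the rule were described from a fixed list of ubiquitin genes, ubiquitin receptors and shuttles, assembly factors and the transcription factors of proteasome genes. Of 33 listed symbols 25 were tested, and edgeR called 0 in each of the 7 contrasts. In the averaged zone contrast 19 of 25 were on the DZ side (53.7% of all genes), with a median log2 fold change of -0.06. The smallest p was that of Nploc4, a cofactor of the unfolding ATPase p97, at 0.72 ± 0.23 (adjusted p = 0.133), followed by the shuttle Ubqln2 at -0.91 ± 0.35 (0.216). Between genotypes 13 of 25 were on the lower side in SykY317F (55.3% of all genes), with a median of -0.11. The smallest p were those of Uchl5, a deubiquitinase of the 19S cap, at -0.88 ± 0.33 (0.370), and of the ubiquitin gene Ubb at 1.65 ± 0.66 (0.398).

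Interferon-linked genes of the class I pathway, which share regulators with the immunoproteasome, were 11 of 11 tested and 0 called in each contrast. Averaged over genotypes, 10 of 11 lay on the LZ side (46.3% of all genes) with a median log2 fold change of 0.18, where the immunoproteasome median was 0.01. Tapbp, the tapasin that loads peptides on class I, had 0.67 ± 0.21 (adjusted p = 0.123) and Nlrc5, the class I transactivator, 0.61 ± 0.21 (0.162). Averaged over zones, 9 of 11 lay on the higher side in SykY317F (3576 of all 7999 genes), with a median of 0.12. Nlrc5 led at 0.54 ± 0.21 (adjusted p = 0.391).

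Markers of the cell types gave the following in the averaged zone contrast. Of 11 GC B cell markers, edgeR called 2 lower in LZ, Gcsam (log2 fold change -1.68 ± 0.30, adjusted p = 0.00831) and Bcl6 (-0.77 ± 0.18, 0.0359), and of 4 plasma cell markers 1 lower, Mzb1 (-0.77 ± 0.19, 0.0414), with Xbp1 at -0.41 ± 0.17 (0.272) and Irf4 on the other side at 0.81 ± 0.47 (0.448). Of 8 myeloid markers 0 were called, with Tyrobp at -1.83 ± 0.49 (0.0712) and Lyz2 at -1.74 ± 0.50 (0.119). Of 4 T cell markers 0 were called, with Thy1 at 0.87 ± 0.78 (0.663) and Cd4 at -0.41 ± 0.94 (0.896).
Within genotypes these lists took different sides. The 4 T cell markers were all on the LZ side in WT (median log2 fold change 1.99) and all on the DZ side in SykY317F (median -0.96), and 8 of 8 myeloid markers were on the DZ side in SykY317F (median -2.32) against 5 of 8 in WT (median -0.27). Of all genes, 51.7% were on the DZ side in WT and 53.3% in SykY317F. None of these T cell and myeloid markers was called in either genotype.
Between genotypes 0 markers of any list were called. The smallest p were those of Bcl6 (-0.72 ± 0.18, 0.174) for GC B cells, C1qb (1.04 ± 0.52, 0.514) and Cst3 (-0.26 ± 0.20, 0.705) for myeloid cells, Irf4 (0.81 ± 0.46, 0.588) and Mzb1 (-0.21 ± 0.19, 0.749) for plasma cells, and Thy1 (1.37 ± 0.79, 0.585) and Lat (0.40 ± 0.26, 0.629) for T cells. The summed level of the T cell list was 19.4 to 53.4 CPM in WT DZ, 53.7 to 163 in WT LZ, 79.1 to 179.7 in SykY317F DZ and 47.8 to 102 in SykY317F LZ, so that the DZ groups did not overlap. The myeloid list summed to 400.0 to 1109.7 CPM in WT DZ, 539 to 736 in WT LZ, 775 to 1136 in SykY317F DZ and 477 to 507 in SykY317F LZ. Most of that sum was Cst3, with 7293 UMIs over the 14 libraries. Next among the 8 myeloid markers tested were Lyz2 with 1342 and Tyrobp with 402. The part of these marker lists in the proteasome values was not tested.

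Promoter sequences (RefSeq, GRCm38.p6, 250 bases before to 50 after the start) were found for 40 members, which had 43 promoters. A member was counted if any of its promoters matched, while the share over all promoters counts each promoter. The 2 percentages of a motif are therefore in unlike units. The letters GAAA, any 2 bases and GAAA again, the core of an interferon-stimulated response element, were present on either strand in 4 (10.0%), namely Psmb3, Psmd4, Psme1 and Psmg4, and in 3.44% of all 32851 promoters. TGACNNNGC, the core of the antioxidant response element, through which factors of the Nrf family act on proteasome genes, was found in 5 (12.5%), Psmb5, Psmb6, Psmc6, Psmd12 and Psme4, and in 12.4% of all promoters. CCAAT was found in 14 (35.0%) and in 37.4%. Each motif was searched on its own on both strands, so matches of different motifs may overlap, and a match describes the letters only. Psmb1, Psmb2, Psmb7, Psmc3, Psmd3, Psmd7 and Psmg2 had no entry.

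In the authors' deposited table of comparisons, 0 of the 47 members had an adjusted p under 0.05 between the zones of a genotype or between genotypes within a zone, where 0.181% to 0.782% of all 9969 genes did. In the authors' deposited table, the crossed comparison of SykY317F LZ with WT DZ called 2 members (2.99% of all genes), Psme2b with a log2 fold change of 1.35 (adjusted p = 0.00163) and Psmd6 with -2.07 (0.00569). That comparison changes genotype and zone together, so the authors' deposited table does not tell the 2 apart there.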

How the data were processed

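Per the labels' protocols, transcript 3′ ends were captured on oligo(dT) beads and tagged with UMIs (a MARS-seq variant). Build mm10 and the tools STAR 2.4.2a, cutadapt, HTSeq, DESeq and DESeq2 appear in the submitters' processing notes. How reads were counted is not given there. The authors deposited raw UMI counts for 9969 genes and raw read counts for 11913 gene symbols (1 with 2 rows, summed here). They also deposited log2 fold changes and p-values with adjusted p-values, used here only in the sentences that name them. The deposited normalised signal columns (counts divided by a size factor) and regularised log2 values were not used.

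UMI counts were filtered with filterByExpr (7999 genes, 99.3% of UMIs), given TMM factors and tested with edgeR 4.0.16 (quasi-likelihood, robust, 4 groups, common coefficient of variation 32.3%; R 4.3.3). Benjamini-Hochberg adjustment ran over all genes of each of 7 contrasts. Alternatives used limma 3.58.1, DESeq2 1.42.0, read counts, other scalings, filters and library sets. GC content came from the GENCODE transcripts of GRCm38.

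The members and lists were chosen with earlier results of these data known. Statistics are printed for the 2 members with the smallest p per direction and contrast, for Psmb5 to Psmb10, Psme1 and Psme2 in the averaged contrasts, and for any member past the threshold. Other members named (such as those that separate groups, or those low in WT DZ replicate 5) were picked after their values were seen. Removal of the GC trend, counts under each alternative and the comparison of UMIs with reads were chosen after seeing the data.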

Additional observations from a re-analysis of the deposited data

Results flagged for a closer look

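In WT DZ and WT LZ, each with 4 libraries, 98 sets of 4 values were examined for a library far from the other 3 (Dixon's 95% value), of which chance flags about 1 in 20; 9 were found. For 6 of them WT DZ replicate 5 was the high library: Psmb8 at 2553 CPM (others 1602 to 1751), Psmb4 at 1017 (677 to 733), Psmd8 at 524 (297 to 325), Psmc3 at 424 (282 to 286), Psmc4 at 346 (191 to 213) and Psmg3 at 109.9 (71.2 to 77.7). WT LZ replicate 5 was high for Psma1 at 114 CPM (others 48.3 to 57.6) and Psma6 at 106 (61.4 to 65.8). WT LZ replicate 3 was high for Psmc1 at 234 CPM (143 to 152).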

How the results depend on the processing

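Of the log2 fold changes of named members under the alternatives, 967 kept direction and side of the threshold, 7 passed it only there and 39 changed sign. Counts of called members moved under DESeq2's Wald test (1 between zones averaged over genotypes, 1 between genotypes averaged over zones), limma voom (2 in WT) and removal of the GC trend (1, zones averaged), and ran from 0 to 1 in the averaged zone contrast when 1 library was left out. With library totals alone the members' median was -0.25 for zones in SykY317F, -0.22 between genotypes in LZ and -0.10 for the difference between zone effects. Leaving out 1 library gave -0.24 to -0.056 for zones in WT, -0.22 to 0.0042 for zones in SykY317F, -0.18 to 0.0071 between genotypes in LZ and -0.12 (without SykY317F LZ replicate 1) to 0.11 for the difference.

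Signs changed between zones for Psmb9 (-0.050 with totals alone, -0.0049 with no filter, -0.013 with the replicate block, -0.18 with reads, -0.10 with the GC trend removed), Psmb10 (-0.029 with totals alone, -0.11 with reads, -0.091 with the GC trend removed), Psmb7 (-0.020 with totals alone, -0.17 in voom) and Psmb5 (-0.12 with reads). Between genotypes they changed for Psme1 (0.075 in voom, 0.13 with the block, 0.20 with reads), Psmb5 (-0.036 in voom, -0.16 with the block, -0.84 with reads, -0.0049 with the GC trend removed) and Psmb6 (0.035 in voom, 0.17 with reads). Leaving out 1 library gave, between zones, -0.10 to 0.079 for Psmb9, -0.042 to 0.15 for Psmb10, -0.16 to 0.25 for Psmb7 and -0.23 to 0.019 for Psme1, and between genotypes -0.016 to 0.19 for Psmb10, -0.17 to 0.10 for Psme1 and -0.082 to 0.18 for Psmb5. The cause was not tested.

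Whether replicate numbers pair the libraries is not stated. Deviations of same-numbered libraries correlated from -0.56 to 0.21 (median 0.10) for zones of a genotype, from -0.17 to 0.18 (median 0.079) for genotypes in a zone and from 0.043 to 0.31 (median 0.20) across both. For libraries with different numbers the medians were lower, 0.0025, -0.034 and -0.068 in the same order, with single values from -0.53 to 0.57. Since not every same-numbered pair was over 0.1, the libraries were not treated as pairs. That choice is no test of pairing. With the replicate number as a block, 0 members were called in each contrast and the count of members with an unadjusted p under 0.05 on the lower side between genotypes, averaged over zones, was 0 in place of 6. Depth limits SykY317F LZ most, where 3 UMIs stand for 8.91 to 18.7 CPM. Leaving out libraries under 400000 UMIs was possible only for zones in WT and for genotypes in DZ.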
